A study of Mus musculus with 12 samples.

Results

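The genes of the proteasome were followed in RNA of mouse astrocytes after an experimental stroke. They were taken as the protein-coding genes whose symbol starts with Psma, Psmb, Psmc, Psmd or Psme and a digit, leaving out Psmb8 and Psmb9, which gave 43 of the 48709 genes in the tables. Of these, 8 code for core subunits of the alpha type, 9 for core subunits of the beta type, 6 for ATPases, 14 for other proteins of the regulatory particle and 4 for activators, 41 in all. The other 2 genes share the start of the name. Psmc3ip codes for a partner of recombinases in meiosis and is no subunit, and Psme2b is a copy of Psme2.

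Astrocytes were isolated by their surface antigen ACSA-2 from brains of C57BL/6 mice aged 90 to 120 days, 24 h after transient middle cerebral artery occlusion (tMCAO). In that model an artery feeding 1 hemisphere is blocked and then reopened. All 6 mice were Gfap-CreERT2+/-;Nhe1f/f, so each carried a Cre recombinase that is driven by the Gfap promoter and needs tamoxifen to act, and floxed alleles of the sodium-proton exchanger Nhe1. Mice 295, 298 and 300 received tamoxifen and are labelled Nhe1 Astro-KO, and mice 296, 297 and 474 received corn oil and are labelled wild-type. The agent and the deletion therefore cannot be told apart, and how far the deletion went is not reported here. Each mouse gave 1 library from the ipsilateral hemisphere, where the artery was blocked, and 1 from the contralateral hemisphere. The 4 groups of 3 libraries were Astro-KO ipsilateral, Astro-KO contralateral, wild-type ipsilateral and wild-type contralateral.

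The proteasome breaks down proteins that carry ubiquitin chains. Its core particle is a barrel with outer rings of alpha subunits and inner rings of beta subunits, and the cutting sites lie inside on Psmb5, Psmb6 and Psmb7. The regulatory particle binds the ubiquitin chain, removes it with the deubiquitinase Psmd14 and feeds the unfolded protein into the barrel through a ring of the ATPases Psmc1 to Psmc6. The activators Psme1 to Psme4 dock on the barrel in place of the regulatory particle. In mammalian cells whose proteasomes are inhibited, the transcription factor Nfe2l1 raises the subunit genes together through antioxidant response elements.

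Total counts were 11187723 to 15780600 per library, of which the 43 genes took 0.260 to 0.429%. Of the 43, 41 had enough counts to be tested among 15571 genes, namely 40 subunit or activator genes and Psmc3ip. Psmb11, the beta subunit of the thymus, had 28 counts over all 12 libraries and was not tested, nor was Psme2b, which had 0 counts in every library. The cells were not pure, and all 10 oligodendrocyte markers were detected. Their summed level was 10591 to 24289 CPM (counts scaled to library size) in Astro-KO ipsilateral, 6208 to 8689.6 in Astro-KO contralateral, 15281 to 24346 in wild-type ipsilateral and 20007 to 21371 CPM in wild-type contralateral libraries. The 12 markers of resting astrocytes, all detected, summed to 16858 to 28402 CPM in Astro-KO ipsilateral, 25570.2 to 30518 in Astro-KO contralateral, 9366 to 10759 in wild-type ipsilateral and 18168 to 24479 CPM in wild-type contralateral libraries. The Astro-KO ipsilateral library of mouse 300 stood apart, with 393 CPM of 10 microglial markers against 2448 and 1615 CPM in mice 295 and 298. The mitochondrial share of counts was 1.83% in mouse 300 and 1.68% in mouse 298 on the Astro-KO ipsilateral side, while the other 10 libraries had 0.923 to 1.21%. Mouse 296 had 4 and 8 counts of Xist and 2917 and 2733 counts of 4 Y-linked genes on the ipsilateral and contralateral side, and the other 10 libraries had at least 9140 counts of Xist and at most 8 of the Y-linked genes. In such bulk samples fewer cells of a type and less RNA per cell cannot be told apart.

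The promoter windows of 4 genes that were higher on the ipsilateral side in both genotypes are shown because they carry different combinations of 2 motifs tied to proteasome genes. RefSeq (GRCm38.p6) held such windows, the 250 bases before the start of the gene in RefSeq, for 36 of the 43 genes, 34 of them subunits or activators. Capitals mark the core of the antioxidant response element, TGACNNNGC, and the core of the ETS family of transcription factors, CCGGAAG, searched on both strands, and no 2 marked matches overlap. The windows lie on the + strand at chr11:107479278-107479527 (Psmd12), chr14:45329574-45329823 (Psmc6), chr11:80428365-80428614 (Psmd11) and chr2:61711444-61711693 (Psmd14). RefSeq starts Psmd12 and Psmc6 downstream of their starts in the GENCODE annotation (mm10), from which gene positions are given here, so these 2 windows reach into the genes as annotated there.
Psmd12: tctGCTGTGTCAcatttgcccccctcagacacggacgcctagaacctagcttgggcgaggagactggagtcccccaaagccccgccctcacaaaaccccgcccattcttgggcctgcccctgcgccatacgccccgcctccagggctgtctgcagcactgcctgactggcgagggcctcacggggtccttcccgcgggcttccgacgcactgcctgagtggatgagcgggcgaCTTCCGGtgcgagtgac
Psmc6: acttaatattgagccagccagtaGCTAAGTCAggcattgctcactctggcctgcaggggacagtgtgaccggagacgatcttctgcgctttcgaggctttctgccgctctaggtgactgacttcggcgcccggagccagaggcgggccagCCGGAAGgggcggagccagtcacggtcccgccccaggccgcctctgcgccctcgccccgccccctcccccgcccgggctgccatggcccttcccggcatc
Psmd11: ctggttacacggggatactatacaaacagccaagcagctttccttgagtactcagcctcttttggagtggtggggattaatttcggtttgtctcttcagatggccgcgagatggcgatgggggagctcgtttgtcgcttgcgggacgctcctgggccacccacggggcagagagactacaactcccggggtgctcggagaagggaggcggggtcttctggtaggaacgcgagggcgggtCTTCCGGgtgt
Psmd14: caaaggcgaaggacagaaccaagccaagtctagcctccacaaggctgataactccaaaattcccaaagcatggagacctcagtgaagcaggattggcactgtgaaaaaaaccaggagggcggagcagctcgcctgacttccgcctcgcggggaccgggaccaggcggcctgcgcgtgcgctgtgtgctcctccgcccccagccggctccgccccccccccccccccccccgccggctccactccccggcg
Psmd12 and Psmc6 each hold 1 match of either motif, Psmd11 holds an ETS match near its start, and Psmd14 holds neither. Psma6, Psmc2 and Psme2 had 2 windows each, and each gene was counted once, with a match in either window. The antioxidant core was present in windows of 5 of 34 subunit and activator genes (14.7%), beside 13.9% of the 11671 tested genes with a window. The 5 genes were Psmb5, Psmb6, Psmc6, Psmd9 and Psmd12. The ETS core was present in windows of 11 of the 34 genes (32.4%), beside 13.9% of the tested genes. It stood before 8 of 17 ATPase and non-ATPase genes of the regulatory particle (47.1%) and before 1 of 13 core genes (7.69%), Psma6. The CCAAT box, the site of the Nfya, Nfyb and Nfyc complex, was in windows of 13 of the 34 genes (38.2%), beside 40.0% of the tested genes. A match is a string of letters and no measured binding.

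The hemisphere comparison asks how the occlusion changed the genes within each genotype. All 40 tested subunit and activator genes were higher on the ipsilateral side in both genotypes by their fitted values. In Astro-KO mice 14 passed the test (5.45% of all genes tested were called higher and 0.841% lower) and 0 were lower, and the median log2 fold change of the 40 genes was 0.54, beside −0.01 for all genes. In wild-type mice 14 also passed (9.61% of all genes were called higher and 9.54% lower), 0 were lower, and the median of the 40 was 0.36, beside −0.06 for all genes. The test was edgeR's quasi-likelihood test over all 12 libraries, with Benjamini-Hochberg adjustment over 15571 genes and a threshold of 0.05. An unadjusted p under 0.05 was reached by 35 of the 40 genes in Astro-KO mice (26.3% of all genes in either direction) and by 19 in wild-type mice (34.2%).

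**Figure D1:**
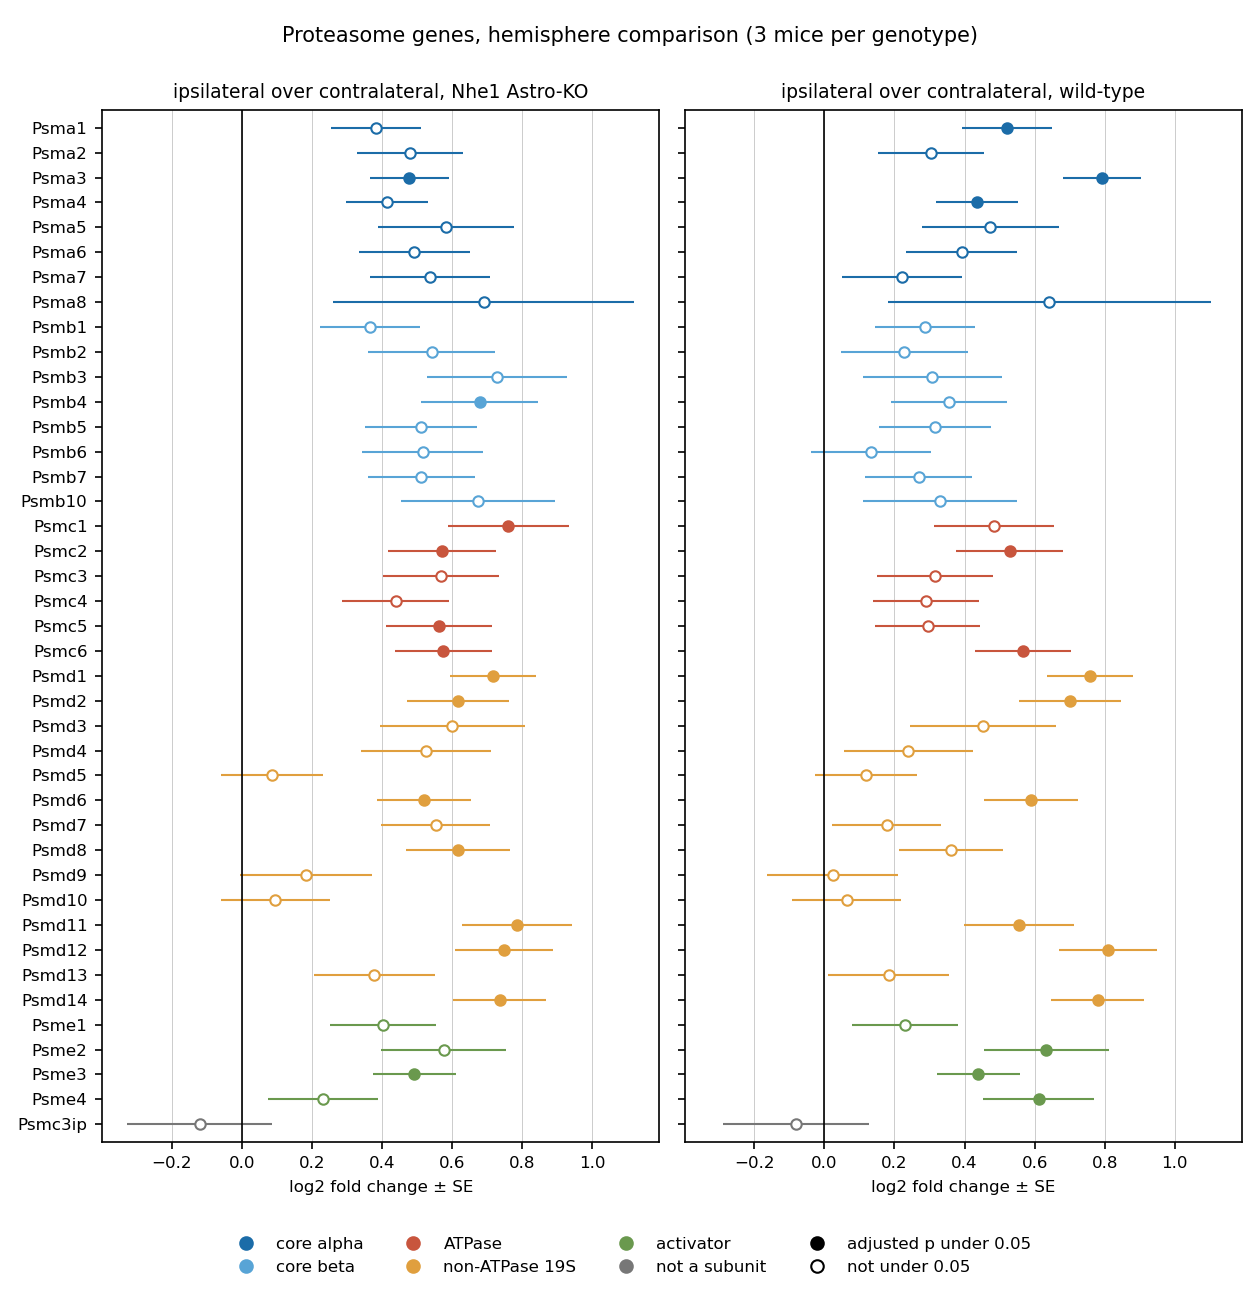
Log2 fold change of ipsilateral over contralateral libraries (± SE, horizontal axis) for the 41 tested genes in Astro-KO mice (left) and wild-type mice (right), 3 mice per genotype. Filled points passed the test at an adjusted p under 0.05, colours give the class, and Psmc3ip at the bottom is the only gene with a negative value in either panel.

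The number of calls depended on the method and on single libraries. DESeq2 called 27 of the 41 genes higher in Astro-KO mice (9.92% of all genes), and limma on log2(TPM + 1) called 4 (2.34%). Without the Astro-KO ipsilateral library of mouse 298, 32 genes passed in Astro-KO mice (10.6% of all genes called higher), and without that of mouse 300, 2 did (1.65%). Leaving out the Astro-KO ipsilateral library of mouse 295 left 3 calls (200 of 15833 genes were called higher in that fit). Leaving out any 1 of the 3 Astro-KO contralateral libraries left 0. Over all genes 169, 23 and 81 were called higher without the contralateral library of mouse 295, 298 or 300, so calls fell across all genes too. In wild-type mice the 14 calls became 6 without the contralateral and 5 without the ipsilateral library of mouse 297, and 8 without the ipsilateral library of mouse 474. In these fits 803 of 15838, 759 of 15851 and 1200 of 15839 genes were called higher. The 5 genes Psma3, Psmd1, Psmd2, Psmd12 and Psmd14 passed in wild-type mice whichever of the 6 wild-type libraries was left out, while 0 of the 14 did so in Astro-KO mice. With both libraries of mouse 296 left out, 19 genes passed in Astro-KO and 14 in wild-type mice (1435 and 1677 of all 15715 genes were called higher).

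With the mouse as a block, which compares the hemispheres within animals, 28 genes passed in Astro-KO mice (10.9% of all genes called higher) and 16 in wild-type mice (14.7%). Within single mice the ipsilateral library was higher for 40, 37 and 40 of the 40 genes in Astro-KO mice 295, 298 and 300, with median log2 ratios of 0.51, 0.29 and 0.78. In wild-type mice 296, 297 and 474 it was higher for 34, 39 and 38 genes, with medians of 0.21, 0.64 and 0.24. These medians lay farther apart within a genotype than the genotypes' own medians did. In all 6 mice 32 of the 40 genes were higher on the ipsilateral side, 5 were higher in 5 mice (Psma7, Psmb6, Psmb10, Psmd7 and Psmd13), Psmd5 and Psmd9 in 4 and Psmd10 in 3. Of all tested genes 29.3% were higher on that side in every Astro-KO mouse and 28.5% in every wild-type mouse. The share of all genes that were higher in all 6 mice was not computed, so the 32 genes have no matching background.

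The summed level of the 41 subunit and activator genes shows the same spread. It was 3804, 3143 and 4463 CPM in the Astro-KO ipsilateral libraries of mice 295, 298 and 300, against 2642, 2562 and 2625 CPM in their contralateral ones. The Astro-KO contralateral libraries lay close together and below all 3 ipsilateral ones, and the highest ipsilateral one, of mouse 300, also had the highest sum of oligodendrocyte markers of the Astro-KO libraries, 24289 CPM. The sum was 3943, 4299 and 3930.3 CPM in the wild-type ipsilateral libraries of mice 296, 297 and 474, against 3348, 2674 and 3074 CPM in the contralateral ones. Values of single libraries are given in this order of mice from here on. The ratio of the means was 1.46 in Astro-KO and 1.34 in wild-type mice. On deposited TPM, which are scaled for transcript length and to 1 sum per library, the ratios were 1.28 and 1.35.

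**Figure D2:**
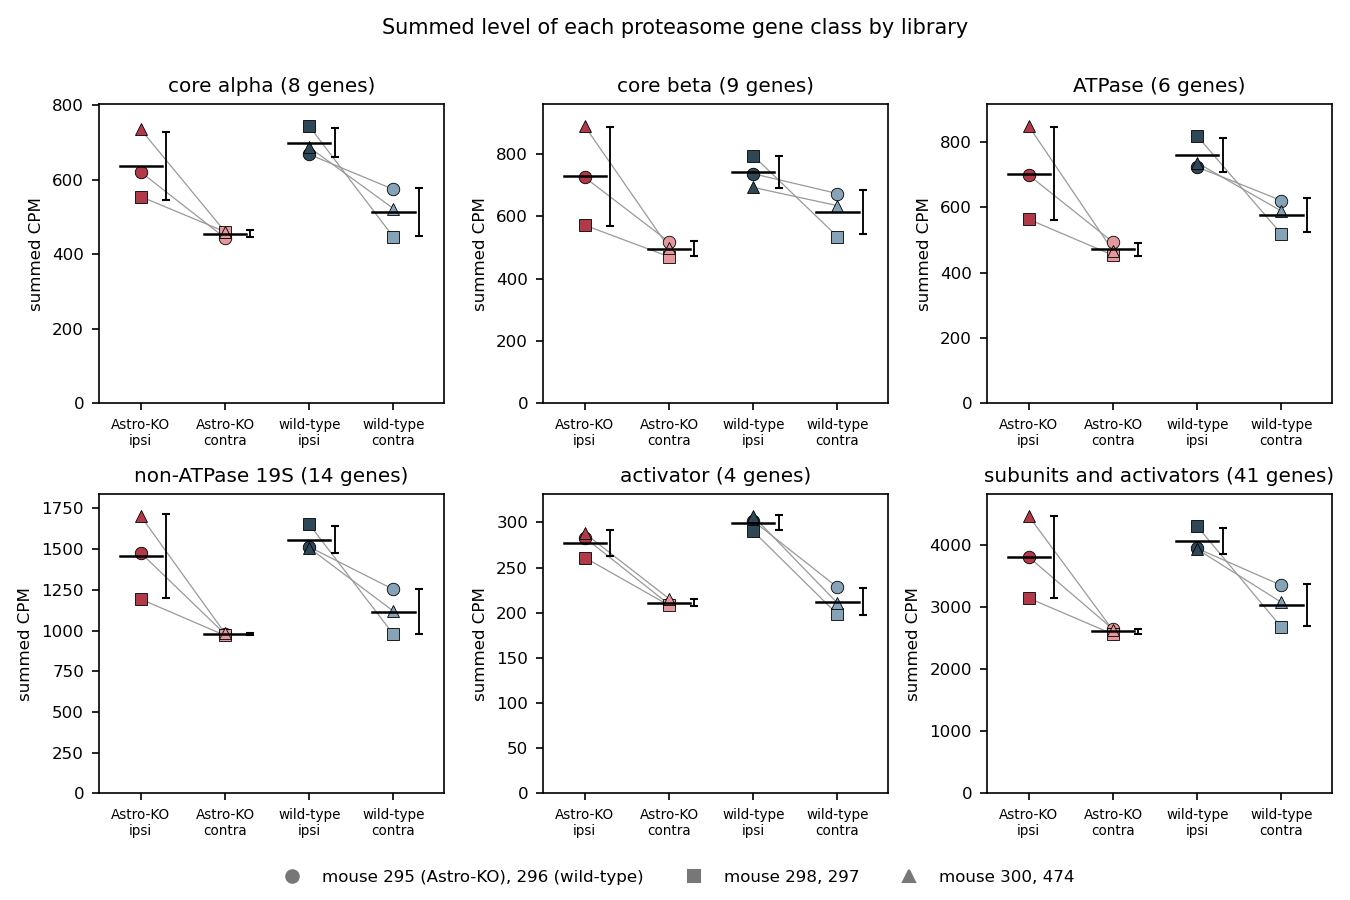
Summed CPM of each class of genes in every library (points, marker shape gives the mouse), with the group mean (bar) and its SD over 3 libraries (error bar), and grey lines joining the hemispheres of a mouse. In each class every mouse's ipsilateral point lies above its contralateral point, and among the Astro-KO ipsilateral points mouse 300 lies at the top and mouse 298 at the bottom.

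The alpha subunits form the outer rings, whose gate admits the substrate. Of 8 genes, 1 passed in Astro-KO mice and 3 in wild-type mice, with medians of 0.49 and 0.45. Psma3 (ENSMUSG00000060073, chr12:70974621-70996347, + strand, mm10) had the smallest p of the class in both. It had 96.3, 100.1 and 109 CPM in Astro-KO ipsilateral libraries, against 68.9, 77.3 and 72.9 CPM in Astro-KO contralateral ones. It had 129, 137 and 122 CPM in wild-type ipsilateral libraries, against 78.1, 67.2 and 79.2 CPM in wild-type contralateral ones. The hemispheres did not overlap in either genotype, and all wild-type ipsilateral libraries lay above all Astro-KO ipsilateral ones. The log2 fold change was 0.48 ± 0.11 (SE, n = 3 each; edgeR adjusted p = 0.0296) in Astro-KO and 0.79 ± 0.11 (edgeR adjusted p = 0.00153) in wild-type mice. A gene on the other strand, 3110056K07Rik, overlaps Psma3, and without a stated strand of counting their reads cannot be told apart. Psma1 (0.52) and Psma4 (0.43) also rose in wild-type mice, and with the mouse block Psma5 and Psma6 did too. In Astro-KO mice Psma1, Psma4, Psma5 and Psma6 passed with the block and not without it. Psma8, which replaces Psma7 in testis, had 152 counts over all libraries and the widest error, with 0.69 ± 0.43 in Astro-KO and 0.64 ± 0.46 in wild-type mice.

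The beta subunits form the inner rings with the cutting sites. Of 8 tested genes, 1 passed in Astro-KO mice, with a class median of 0.53, and 0 passed in wild-type mice, where the median was 0.30. On log2(TPM + 1) the class medians were 0.34 in Astro-KO and 0.34 in wild-type mice. In wild-type mice the smallest adjusted p of edgeR was 0.151 and 0 of the 8 reached an unadjusted p under 0.05, DESeq2 also called 0 (12.4% of all genes higher), and 3 of the 8 did not overlap between the hemispheres (17.3% of all genes were higher without overlap). Psmb4 (ENSMUSG00000005779, chr3:94884093-94886961, − strand) had the smallest p in both genotypes. It had 117, 96.2 and 149.7 CPM in Astro-KO ipsilateral libraries, against 79.3, 71.3 and 76.1 CPM in contralateral ones. It had 129, 135 and 112 CPM in wild-type ipsilateral libraries, against 113, 84.2 and 96.9 CPM in contralateral ones. Only the Astro-KO hemispheres stood apart, with a log2 fold change of 0.68 ± 0.17 (edgeR adjusted p = 0.0353), while the wild-type value was 0.36 ± 0.17 (0.151).
The catalytic subunits had fitted values of 0.51 (Psmb5), 0.52 (Psmb6) and 0.51 (Psmb7) in Astro-KO mice and 0.32, 0.13 and 0.27 in wild-type mice, and none passed. With the mouse block 7 of 8 beta genes passed in Astro-KO mice, these 3 among them with edgeR adjusted p of 0.0423, 0.0465 and 0.0411, and 0 passed in wild-type mice. Psmb10, the inducible subunit that takes the place of Psmb7, had 0.67 ± 0.22 in Astro-KO and 0.33 ± 0.22 in wild-type mice, and it passed in Astro-KO mice with the block.

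The ATPases form the ring that unfolds the substrate. Of the 6, 4 passed in Astro-KO mice (Psmc1, Psmc2, Psmc5 and Psmc6, class median 0.57) and 2 in wild-type mice (Psmc2 and Psmc6, class median 0.40). Psmc1 (ENSMUSG00000021178, chr12:100110154-100123405, + strand) had the smallest p in Astro-KO mice. It had 123, 92.2 and 152 CPM in Astro-KO ipsilateral libraries, against 72.7, 75.0 and 68.9 CPM in contralateral ones, a log2 fold change of 0.76 ± 0.17 (edgeR adjusted p = 0.0271). In wild-type libraries it had 135, 149 and 124 CPM on the ipsilateral side, against 113, 89.3 and 89.3 CPM on the contralateral side, which did not overlap but did not pass (0.48 ± 0.17, edgeR adjusted p = 0.0684, DESeq2 adjusted p = 0.0406).
Psmc6 (ENSMUSG00000021832, chr14:45329788-45349705, + strand), whose promoter is shown above, had the smallest p in wild-type mice. It had 63.8, 68.6 and 79.9 CPM in Astro-KO ipsilateral libraries, against 43.9, 50.4 and 48.1 CPM in contralateral ones (0.58 ± 0.14, edgeR adjusted p = 0.0320). It had 72.6, 85.8 and 81.8 CPM in wild-type ipsilateral libraries, against 61.0, 45.9 and 55.3 CPM in contralateral ones (0.57 ± 0.14, edgeR adjusted p = 0.0152). All 6 ATPase genes stood apart between the hemispheres in wild-type mice (17.3% of all genes were higher without overlap there). In Astro-KO mice 4 did (18.6% of all genes), the exceptions being Psmc3 and Psmc4.

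The largest single fold change was that of a non-ATPase gene of the regulatory particle in each genotype, Psmd11 (0.79) in Astro-KO and Psmd12 (0.81) in wild-type mice. Next came the ATPase gene Psmc1 (0.76) in Astro-KO and the alpha gene Psma3 (0.79) in wild-type mice. Of the 14 non-ATPase genes, 7 passed in Astro-KO mice, with a class median of 0.58, and 6 in wild-type mice, with a median of 0.41. Psmd1, Psmd2, Psmd6, Psmd11, Psmd12 and Psmd14 passed in both, and Psmd8 in Astro-KO mice. Psmd1 (ENSMUSG00000026229, chr1:86064387-86139151, + strand), a large scaffold protein, had the smallest p of the class in both genotypes. It had 144, 127 and 169 CPM in Astro-KO ipsilateral libraries, against 86.2, 92.9 and 88.5 CPM in contralateral ones (0.72 ± 0.12, edgeR adjusted p = 0.0117). It had 162, 179 and 169 CPM in wild-type ipsilateral libraries, against 107, 96.1 and 98.3 CPM in contralateral ones (0.76 ± 0.12, edgeR adjusted p = 0.00254). Every ipsilateral library lay above every contralateral one in both genotypes. Psmd1 overlaps 4 annotated genes, 1 of them on the other strand, whose part in its counts was not tested.
Psmd12 (0.75 and 0.81), a lid protein, Psmd14 (0.74 and 0.78), the deubiquitinase, and Psmd11 (0.79 and 0.56), a lid protein that touches the core, rose in both genotypes, the value of Astro-KO mice being given before that of wild-type mice. Psmd2, the scaffold that binds ubiquitin shuttles, rose by 0.62 in Astro-KO and by 0.70 in wild-type mice. Psmd4, a ubiquitin receptor, had 0.53 in Astro-KO and 0.24 in wild-type mice, neither passing. Psmd7, the partner of Psmd14, had 0.55 in Astro-KO mice (edgeR adjusted p = 0.0558, or 0.0327 with the mouse block) and 0.18 in wild-type mice.

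The non-ATPase genes Psmd5, Psmd9 and Psmd10 code for chaperones that help to build the ATPase ring and leave before the particle is complete, and they had the smallest differences between the hemispheres. Psmd5 had 47.5, 40.2 and 47.2 CPM in Astro-KO ipsilateral libraries, against 40.7, 42.3 and 44.2 CPM in contralateral ones (0.09 ± 0.15). It had 32.6, 42.0 and 45.9 CPM in wild-type ipsilateral libraries, against 34.9, 34.5 and 41.7 CPM in contralateral ones (0.12 ± 0.15). The hemispheres overlapped in both genotypes. Psmd9 had fitted values of 0.18 ± 0.19 in Astro-KO and 0.02 ± 0.19 in wild-type mice, and Psmd10 had 0.10 ± 0.16 in Astro-KO and 0.06 ± 0.16 in wild-type mice. None of the 3 passed, and in both genotypes they held the 3 smallest values among the 40 genes. This grouping was made after the values were seen and has no test.

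The 4 activators are not built alike. Psme1 and Psme2 form 1 ring that interferon induces, Psme3 forms a ring in the nucleus, and Psme4 is a single large cap. In Astro-KO mice 1 passed (class median 0.45) and in wild-type mice 3 did (class median 0.53). Psme3 (ENSMUSG00000078652, chr11:101316213-101323537, + strand) passed in both. It had 87.8, 74.9 and 96.3 CPM in Astro-KO ipsilateral libraries, against 60.1, 61.7 and 62.3 CPM in contralateral ones (0.49 ± 0.12, edgeR adjusted p = 0.0324). It had 77.8, 85.4 and 86.7 CPM in wild-type ipsilateral libraries, against 61.1, 56.8 and 66.4 CPM in contralateral ones (0.44 ± 0.12, edgeR adjusted p = 0.0237).
Psme4 (ENSMUSG00000040850, chr11:30771726-30880361, + strand) had the smallest p of the class in wild-type mice. It had 78.6, 105 and 87.5 CPM in Astro-KO ipsilateral libraries, against 65.0, 83.1 and 83.0 CPM in contralateral ones, which overlapped (0.23 ± 0.16, edgeR adjusted p = 0.362). It had 130.2, 121 and 127 CPM in wild-type ipsilateral libraries, against 99.0, 77.8 and 71.0 CPM in contralateral ones, which stood apart (0.61 ± 0.16, edgeR adjusted p = 0.0202). The difference between these 2 changes did not pass (interaction −0.38 ± 0.22, edgeR adjusted p = 0.948). Gm12103 overlaps Psme4 on the other strand, and its part in these counts was not tested. Psme2 had 0.58 ± 0.18 in Astro-KO mice and rose by 0.63 ± 0.18 in wild-type mice, and with the mouse block Psme1 and Psme2 passed in Astro-KO mice too.

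**Figure D3:**
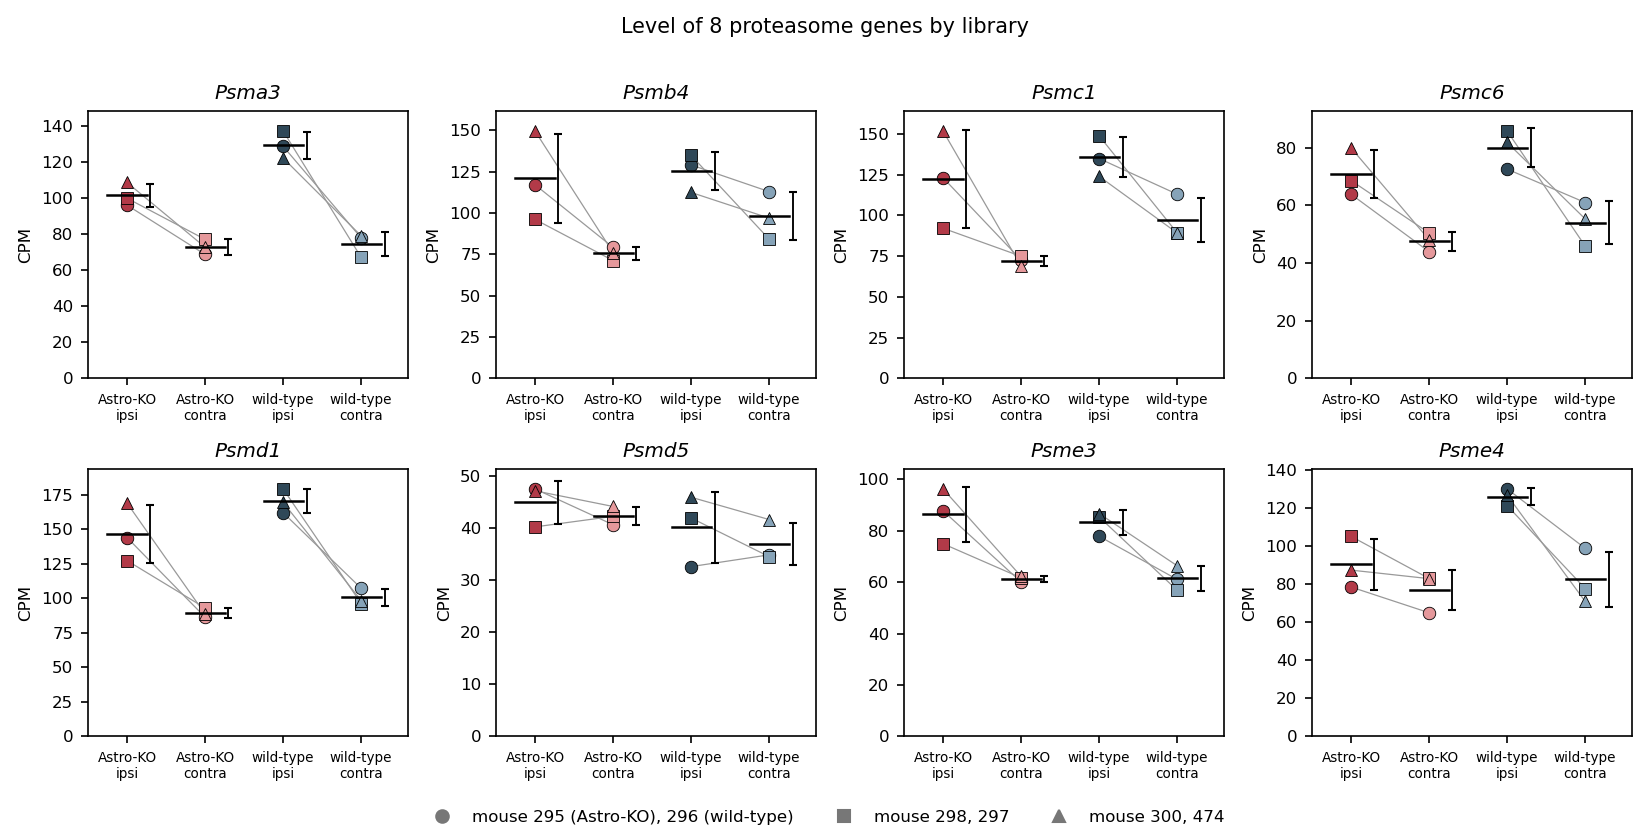
CPM of 8 genes in every library (points, marker shape gives the mouse), with the group mean (bar), its SD over 3 libraries (error bar) and grey lines joining the hemispheres of a mouse. Psma3, Psmb4, Psmc1, Psmc6, Psmd1, Psme3 and Psme4 lie higher on the ipsilateral side in each of the 6 mice. Psmd5 overlaps between all groups, and Psme4 lies highest in wild-type ipsilateral libraries, at 121 to 130.2 CPM.

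Of the 14 genes called in each genotype 10 were the same, 71.4% of each list. They were Psma3, Psmc2, Psmc6, Psmd1, Psmd2, Psmd6, Psmd11, Psmd12, Psmd14 and Psme3. Psmb4, Psmc1, Psmc5 and Psmd8 passed in Astro-KO mice alone and Psma1, Psma4, Psme2 and Psme4 in wild-type mice alone, but a gene past the threshold in 1 genotype is not thereby shown to differ from the other. Of the 10 shared genes 7 had an ETS core in a promoter window (70.0%). Among genes with a window the share was 13.9% of tested genes and 32.4% of subunit and activator genes. It was 47.1% of genes of the regulatory particle, the class of most shared genes. The 10 genes were picked by their calls in these data, so the tie of the motif to the rise was not tested. Psmc3ip, the gene that is no subunit, had −0.12 ± 0.21 in Astro-KO and −0.08 ± 0.21 in wild-type mice. Markers of resting astrocytes moved the other way, and 11 of 12 passed as lower in wild-type mice, against 0 of 12 in Astro-KO mice. Their sum was lower on the ipsilateral side in each Astro-KO mouse too. It was 16858, 28402 and 21036 CPM there, against 25570, 30518 and 29819.5 CPM on the contralateral side. The interaction called 0 of the 12, so a difference between the genotypes in this fall was not shown. The 10 microglial markers, all detected, summed to 942.5 to 1485 CPM in wild-type ipsilateral libraries, against 551.5 to 596 CPM in wild-type contralateral ones, and to 393 to 2448 CPM in Astro-KO ipsilateral libraries, against 881 to 1378 CPM in Astro-KO contralateral ones, with 0 of 10 passing in either genotype. The 8 markers of monocytes and macrophages summed to 95.7 to 129.6 CPM in wild-type ipsilateral libraries, against 46.6 to 60.9 CPM in contralateral ones, with 2 passing as higher, and 4 of the 8 markers of pericytes and smooth muscle passed as lower there. Neither list had a call in Astro-KO mice. Of the oligodendrocyte markers 2 of 10 passed as higher in Astro-KO and 1 of 10 in wild-type mice, and the part of these other cell types in the results was not tested.

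The test of whether the hemisphere difference depends on the genotype is the interaction. Of the 40 genes 0 passed it by edgeR, with a smallest adjusted p of 0.948, and 0 reached an unadjusted p under 0.05, beside 0.0% called and 4.9% with such a p among all genes. DESeq2 gave an adjusted p for 3 of the 40 genes alone and called 0 of those (0.0835% of all genes higher and 0.0% lower), so it says nothing of the other genes. The values lay between −0.38 (Psme4) and 0.42 (Psmb3), with a median of 0.15 beside 0.06 for all genes. All 8 beta genes had positive values, that is, a larger difference in Astro-KO mice, with a median of 0.32, but on log2(TPM + 1) 2 of the 8 were negative and the median was 0.07. Psmb3 had 0.42 ± 0.28, Psmb6 0.38 ± 0.24 and Psmb4 0.32 ± 0.23, and Psma3 had the most negative value of the core at −0.31 ± 0.16. On log2(TPM + 1) the median of the 40 genes was −0.08, so the sign depended on the scaling, which moved the median of all genes to −0.16. Without the Astro-KO ipsilateral library of mouse 300 the median of the 41 tested genes on counts was −0.05.

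The genotype comparison within a hemisphere asks whether the genes stood at different levels after the tamoxifen-induced deletion. On the ipsilateral side 0 of the 40 genes passed the test of edgeR (4.33% of all genes were called higher in Astro-KO mice and 1.98% lower). The median log2 fold change of Astro-KO over wild-type was −0.09, and 25 of 40 values were negative. An unadjusted p under 0.05 was reached by Psma3 and Psme4 (21.8% of all genes). Psma3 had −0.35 ± 0.11 (edgeR adjusted p = 0.0875) and Psme4 −0.48 ± 0.16 (edgeR adjusted p = 0.0968), on the values given above. These were the only 2 of the 40 genes whose groups did not overlap, both lower in Astro-KO mice (10.1% of all genes were lower without overlap). DESeq2 called both lower (4.23% of all genes), with adjusted p of 0.0176 and 0.0410, and limma on log2(TPM + 1) called Psma3 lower (2.07% of all genes), with an adjusted p of 0.0343. Of the 12 markers of resting astrocytes 10 passed as higher and 0 as lower in these Astro-KO libraries. Markers of other cells differed too, with 3 of 8 of pericytes and smooth muscle higher and 3 of 10 of oligodendrocytes lower. Of monocytes and macrophages 1 of 8 was lower, as was 1 of 8 of neurons. The part of these cell types was not tested.
The smallest p among the beta genes was that of Psmb10, with 33.9, 22.0 and 37.2 CPM in Astro-KO ipsilateral libraries, against 27.5, 21.3 and 23.5 CPM in wild-type ipsilateral ones, which overlapped (0.36 ± 0.22, edgeR adjusted p = 0.369). Among the ATPases it was that of Psmc2, with 111, 98.3 and 148 CPM in Astro-KO libraries, against 122, 152 and 141 CPM in wild-type ones (−0.22 ± 0.15, edgeR adjusted p = 0.453). Among the non-ATPase genes it was that of Psmd14, with 64.7, 63.1 and 76.5 CPM in Astro-KO libraries, against 74.6, 94.2 and 75.9 CPM in wild-type ones (−0.26 ± 0.13, edgeR adjusted p = 0.278). In each of the 3 the groups overlapped.

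On the contralateral side 0 of the 40 genes passed either (0.0835% of all genes were called higher and 1.41% lower by edgeR), and DESeq2 called 0 (0.751% of all genes higher and 3.46% lower). An unadjusted p under 0.05 was reached by 5, all lower in Astro-KO mice (14.3% of all genes in either direction). The values leaned to one side, 33 of 40 being negative, with a median of −0.19 beside 0.00 for all genes. Of the 40, 16 were lower in Astro-KO libraries without overlap (13.5% of all genes), of them 1 alpha, 4 beta, 4 ATPase and 7 non-ATPase genes and 0 activators. Class medians were −0.09 for alpha, −0.33 for beta, −0.26 for ATPase and −0.18 for non-ATPase genes, and 0.04 for activators.
Psmb2 had the smallest p, with 62.1, 53.3 and 58.5 CPM in Astro-KO contralateral libraries, against 96.6, 70.1 and 73.0 CPM in wild-type contralateral ones (−0.46 ± 0.18, edgeR adjusted p = 0.274). Psma7 had 71.4, 67.6 and 66.3 CPM in Astro-KO libraries, against 111, 80.8 and 85.9 CPM in wild-type ones (−0.44 ± 0.17, edgeR adjusted p = 0.275). Psmc1, whose values are given above, had −0.43 ± 0.17 (edgeR adjusted p = 0.284). The highest of the wild-type values came from mouse 296 in all 3 genes, and the groups did not overlap. Psmd13 had 71.7, 71.5 and 72.2 CPM in Astro-KO libraries, against 120.3, 74.5 and 81.9 CPM in wild-type ones (−0.36 ± 0.17, edgeR adjusted p = 0.373). Psme4 had the smallest p among the activators (−0.10 ± 0.16, edgeR adjusted p = 0.782).
On log2(TPM + 1) the median of the genes was −0.06, with 24 of 40 negative, while the median of all genes moved to 0.12, and the class medians of the alpha genes and the activators became positive (0.05 and 0.16). Without both libraries of mouse 296 the median of the 41 tested genes on counts was −0.12. Oligodendrocyte markers, given above, were lower in these Astro-KO libraries too, 5 of 10 passing, as was 1 of 8 neuronal markers. The part of these cell types in the lower values was not tested.

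**Figure D4:**
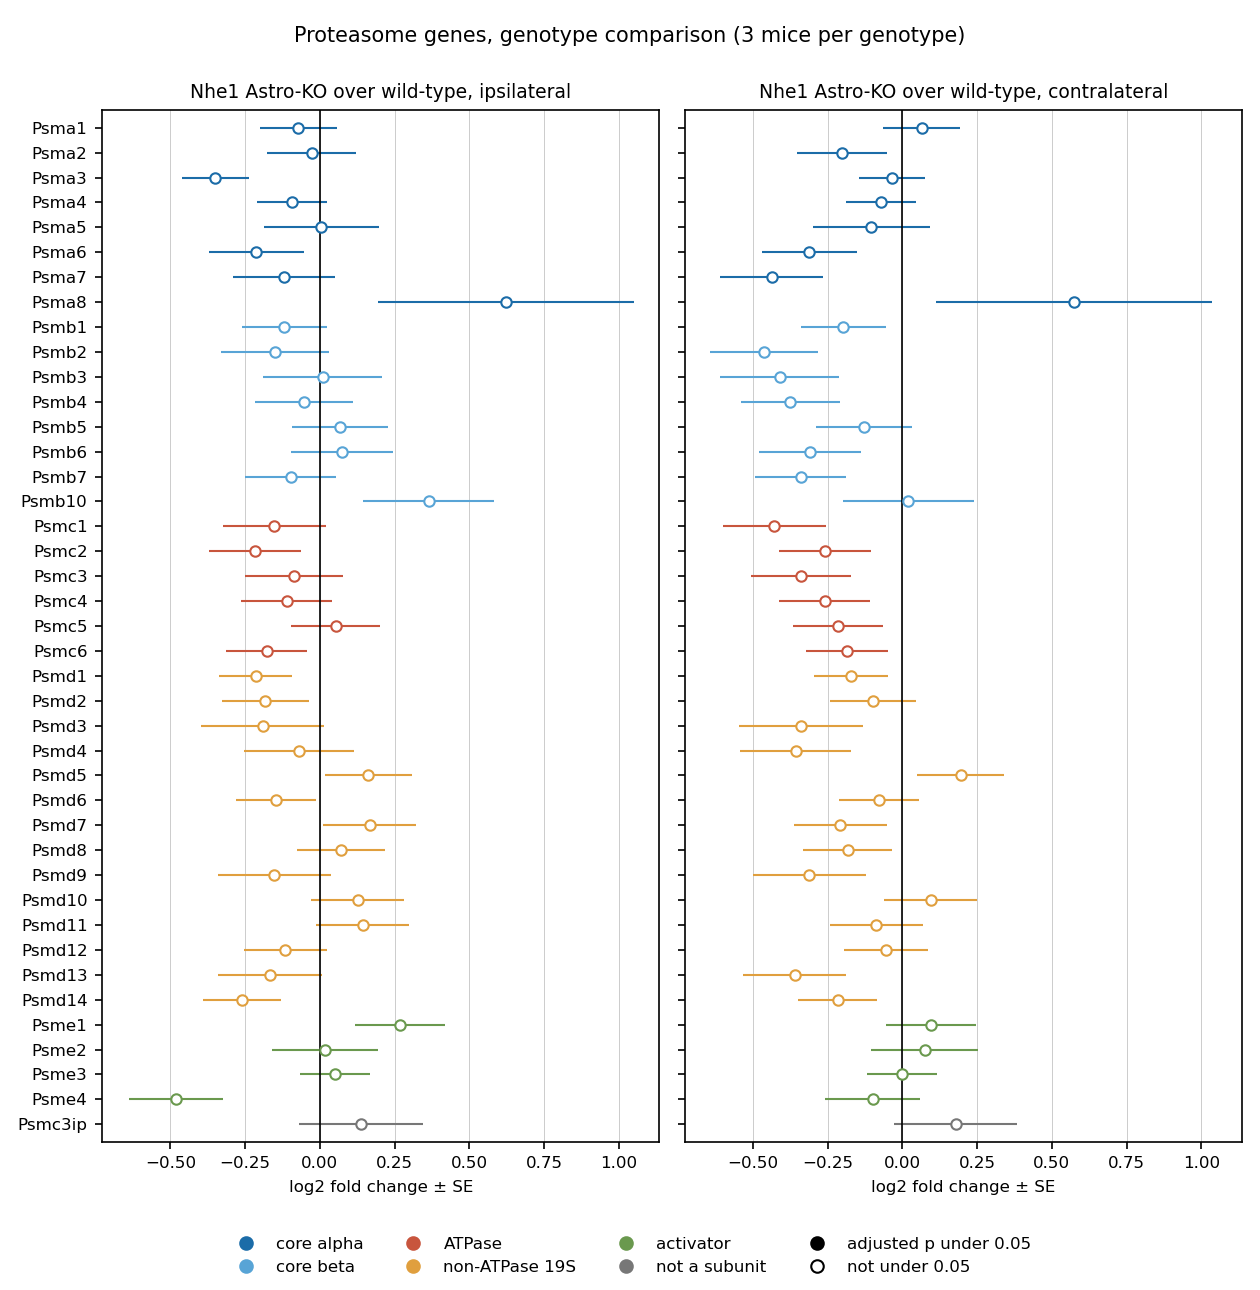
Log2 fold change of Astro-KO over wild-type libraries (± SE, horizontal axis) for the 41 tested genes on the ipsilateral side (left) and the contralateral side (right), 3 mice per genotype. All points are open because 0 passed at an adjusted p under 0.05, and most contralateral values lie left of 0.

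The genes were also set beside other genes of the pathway. For these lists the share of all genes called higher was 5.45% in Astro-KO and 9.61% in wild-type mice. With the mouse block it was 10.9% and 14.7%. Of 7 assembly factors 1 passed as higher on the ipsilateral side in each genotype, in both cases Pomp, the chaperone that matures the core particle. Pomp had 80.6, 65.8 and 101 CPM in Astro-KO ipsilateral libraries, against 52.6, 48.4 and 49.1 CPM in contralateral ones (0.72 ± 0.15, edgeR adjusted p = 0.0194). It had 82.8, 96.6 and 81.2 CPM in wild-type ipsilateral libraries, against 59.7, 57.8 and 57.3 CPM in contralateral ones (0.58 ± 0.15, edgeR adjusted p = 0.0188). The hemispheres stood apart in both genotypes. With the mouse block 2 passed in Astro-KO and 3 in wild-type mice. Medians of the 7 were 0.23 in Astro-KO and 0.36 in wild-type mice. Psmg4, a partner in the assembly of the alpha ring, had 0.79 ± 0.22 in Astro-KO mice (edgeR adjusted p = 0.0504) and 0.64 ± 0.21 in wild-type mice (edgeR adjusted p = 0.0559), passing in both with the block.

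Of 11 proteasome-bound factors 1 passed as higher in Astro-KO mice (5.45% of all genes) and 3 in wild-type mice (9.61%), with medians of 0.29 and 0.31. With the mouse block 5 passed in Astro-KO mice (10.9%), Zfand2a and Usp14 among them, and 4 in wild-type mice (14.7%). Txnl1, a thioredoxin-like protein of the regulatory particle, rose by 0.59 in Astro-KO and by 0.61 in wild-type mice. Zfand2a, a stress-induced zinc finger protein, had 0.71 in Astro-KO mice without passing unblocked and rose by 0.94 in wild-type mice. Usp14, a deubiquitinase, had 0.51 in Astro-KO mice without passing unblocked and rose by 0.68 in wild-type mice. Of 15 genes that supply ubiquitin or deliver substrates, 5 passed as higher in Astro-KO (5.45% of all genes) and 4 in wild-type mice (9.61%), with medians of 0.41 and 0.36. The shuttle Rad23b rose by 0.57 in Astro-KO and by 0.69 in wild-type mice, and the ubiquitin gene Rps27a rose by 0.98 in Astro-KO and by 0.67 in wild-type mice. The shuttle Ubqln1 rose by 0.62 in Astro-KO and by 0.47 in wild-type mice, and Nploc4, a cofactor of the segregase Vcp, by 0.60 in Astro-KO and by 0.56 in wild-type mice.

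Of 14 transcription factors of proteasome genes and their processing enzymes, 0 passed between the hemispheres in Astro-KO mice. There 5 had an unadjusted p under 0.05 (26.3% of all genes), DESeq2 called 0 (9.92% of all genes higher) and the fit with the mouse block called 2 higher (10.9%). In wild-type mice Nfya rose by 0.70 and Foxo4 fell by 0.67. Nfe2l1 had 252, 195 and 289 CPM in Astro-KO ipsilateral libraries, against 181, 181 and 202 CPM in contralateral ones, which overlapped (0.38 ± 0.15, edgeR adjusted p = 0.131). It had 195, 224 and 233 CPM in wild-type ipsilateral libraries, against 193, 196 and 182 CPM in contralateral ones, which overlapped (0.19 ± 0.15, edgeR adjusted p = 0.390). Nfe2l1 acts through cleavage of its protein, which RNA does not measure. Nfe2l3, a relative of Nfe2l1, was the only gene of the 5 lists to pass between the genotypes by edgeR. It had 6.74, 12.3 and 7.83 CPM in Astro-KO ipsilateral libraries, against 17.0, 28.8 and 14.9 CPM in wild-type ipsilateral ones (−1.17 ± 0.29, edgeR adjusted p = 0.0340). On the contralateral side it had −1.04 ± 0.29 (edgeR adjusted p = 0.117). DESeq2 called 1 of the 11 proteasome-bound factors and 1 of these 14 genes lower on that side (3.46% of all genes lower).

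Of the inducible subunits left out of the 43 genes, Psmb8 passed as higher in both genotypes and Psmb9 in neither. Psmb8 had 36.8, 22.7 and 28.9 CPM in Astro-KO ipsilateral libraries, against 15.9, 10.2 and 13.7 CPM in contralateral ones (1.15 ± 0.22, edgeR adjusted p = 0.0163). It had 31.0, 22.3 and 25.8 CPM in wild-type ipsilateral libraries, against 11.7, 11.99 and 13.9 CPM in contralateral ones (1.07 ± 0.22, edgeR adjusted p = 0.00713). The rise of Psmb8 was larger than that of any of the 40 genes in both genotypes by its fitted value. Psmb9 had 0.13 ± 0.30 in Astro-KO and 0.05 ± 0.31 in wild-type mice.

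Levels of different genes can be compared on TPM. The means below pool the 4 groups, whose own means differ. The SD, called spread here, includes these group differences, so it gives no test of a difference between genes. Over 12 libraries the highest means were those of Psma2 (306 ± 44.6 TPM, SD) and Psmb1 (300.1 ± 38.3 TPM), which differed by less than their spread. Among the ATPases Psmc5 (248 ± 38.4 TPM) and Psmc1 (229.8 ± 55.3) had the highest means, and Psmc2 was lowest at 70.0 ± 15.3. Psmc5 had the higher group mean except in wild-type ipsilateral libraries, where it had 284 TPM against 297 TPM for Psmc1. Among the non-ATPase genes Psmd7 (196 ± 26.5 TPM) and Psmd2 (193 ± 47.8) had the highest means, but their order depended on the group. Psmd2 was higher in wild-type ipsilateral libraries (256 against 212 TPM). Psmd7 was higher in wild-type contralateral (180 against 152 TPM), Astro-KO contralateral (171 against 155) and Astro-KO ipsilateral libraries (221 against 210). The 3 chaperones Psmd10 (30.7 ± 3.14), Psmd9 (25.2 ± 3.99) and Psmd5 (22.0 ± 2.93) were lowest, with neighbours within each other's spread. Among the activators Psme3 (80.9 ± 12.95 TPM) and Psme1 (72.2 ± 12.6) did not differ beyond their spread, and Psme4 was lowest at 36.8 ± 9.08. Psmb10, the inducible beta subunit, stood at 44.7 ± 10.6 TPM, below its constitutive relative Psmb7 at 94.2 ± 14.4. Psma8 stood at 1.90 ± 0.788 and Psmb11 at 0.144 ± 0.132 TPM.
For the 2 genes at the top the counts were low for the deposited RPKM, a level scaled for length and depth. The counts of Psmb1 and Psma2 were 0.225 and 0.257 times what their RPKM and exon length imply, taking the typical gene as 1. The exon length joined all annotated exons of a gene and may exceed the length used for RPKM. The cause was not tested. Psme2b, with 0 counts, was listed at 8.79 TPM, with a range of 4.94 to 21.0. Within a gene the ratio of counts to TPM stayed within 2% of its median over the 12 libraries for 39 of the 41 tested genes and within 5% for all 41, once the libraries were scaled to the typical gene.

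**Figure D5:**
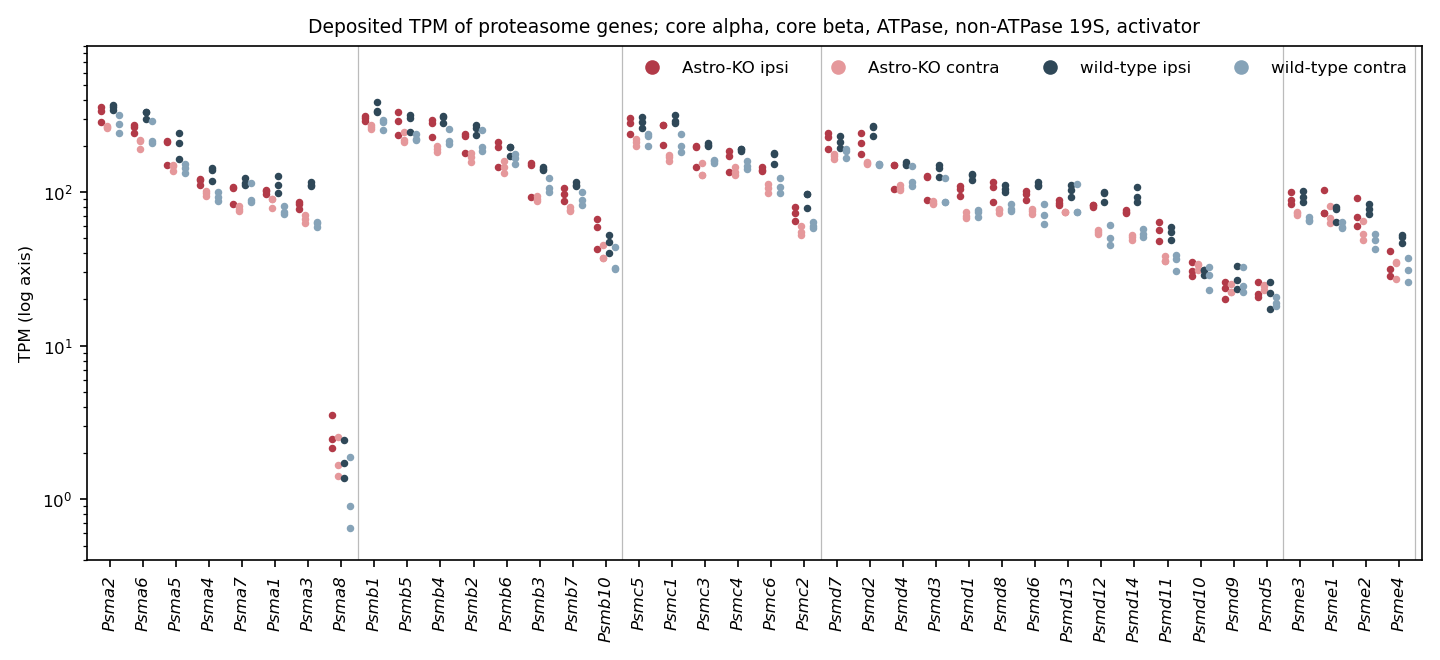
Deposited TPM (log axis) of 40 subunit and activator genes in each of 12 libraries, ordered by mean TPM within the classes core alpha, core beta, ATPase, non-ATPase and activator, with the 4 groups side by side. Most genes lie between about the level of Psme4 (36.8 TPM on average) and that of Psma2 (306), and the 3 chaperones Psmd10, Psmd9 and Psmd5 and the testis gene Psma8 (1.90) lie lower.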

How the data were processed

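RNA-seq of ACSA-2+ astrocytes from both hemispheres of 6 mice, 24 h after tMCAO, gave 12 libraries in 4 groups of 3. Per the file headers the authors deposited, for each gene and library, total counts, TPM and RPKM, and reads were mapped to mm10 per the submitters' processing notes. No aligner, counter, annotation version or strand setting is given in the sources used. The deposited counts were tested, and the deposited TPM served for levels between genes and as an alternative. The deposited RPKM served only to check counts against exon length. Counts were low for the RPKM and joined exon length of Psmb1 and Psma2, and Psme2b has TPM but no counts, for causes not tested.

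Counts were fitted with edgeR 4.0.16 (quasi-likelihood, TMM scaling, filterByExpr with a minimum count of 10, robust, 8 residual degrees of freedom) in R 4.3.3 over all 12 libraries, with Benjamini-Hochberg adjustment over 15571 genes in each of 5 comparisons, with a threshold of 0.05. CPM are TMM-scaled. TPM were tested with limma 3.58.1 on log2(TPM + 1), for genes with at least 1 TPM in 3 libraries, and counts also with DESeq2 1.42.0. Fold changes on the log2(TPM + 1) scale understate the change of low genes. Groups came from the sample titles, and the mouse numbers in them were taken as animals, so that both hemispheres of a number are paired. Deviations from the group means correlated between the hemispheres of a mouse at 0.34, 0.41 and 0.17 in Astro-KO mice 295, 298 and 300 and at 0.67, 0.00 and 0.40 in wild-type mice 296, 297 and 474, over 14683 genes. Crosswise, 297 ipsilateral with 474 contralateral gave 0.29 and 474 ipsilateral with 297 contralateral 0.47, so the blocked and within-mouse values of these 2 mice rest on the titles alone. Replicate libraries of a group differed by more than counting noise, with a chi-square of 10.8 to 66.1 per degree of freedom.

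Named for each comparison and class were the gene with the smallest p, the extreme fold changes and genes called, the most and least abundant genes, and up to 4 genes per pathway list. 1 gene of a pathway list is not reported here by name. The genes, classes and lists were chosen with earlier results of these data known. On simulated counts for the hemisphere comparison in wild-type mice (15571 genes) the test called 35 of 100 genes changed 2-fold, 87 of 100 changed 4-fold and 8 of 15371 unchanged genes. In the data 2982 genes were called in this comparison, far more than were changed in the simulation. The largest change of a subunit or activator gene there was 1.75-fold (Psmd12). The simulated rates therefore do not carry over to these genes.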

Additional observations from a re-analysis of the deposited data

How the results depend on the processing

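Counts of called genes are over 41 tested genes. The 14 called as higher on the ipsilateral side in Astro-KO mice became 27 with DESeq2, 28 with the mouse as a block, 4 on log2(TPM + 1), 4 on log2(TPM + 0.1) and 3 on TPM without a filter, and 0 to 32 when a library or mouse was left out. The median of the 41 genes, 0.54, was 0.34, 0.35 and 0.34 on those 3 TPM scales and 0.36 to 0.70 with a library or mouse left out (0.38 with the ipsilateral library of mouse 300 left out). The 14 called in wild-type mice became 16 with the mouse block and 2 to 17 with libraries left out, with medians of 0.24 to 0.44. In wild-type mice 2 were called without mouse 297 and 5 without mouse 474, and in Astro-KO mice 0 were called without mouse 295 or mouse 300, 7 without mouse 297 and 8 without mouse 474. Among all genes, 15785 to 15808 in these fits, 304 and 526 were called higher in wild-type mice without mouse 297 or 474. In Astro-KO mice 2, 47, 508 and 648 were called higher without mouse 295, 300, 297 or 474. Between the genotypes the calls on the ipsilateral side were 2 with DESeq2 and 1 on each TPM scale, against 0, and 0 to 0 with libraries left out, with medians of −0.22 to 0.069. On the contralateral side they were 0 to 0, with medians of −0.29 to −0.12. The interaction gave 0 to 0 calls, with medians of −0.047 (leaving out the Astro-KO ipsilateral library of mouse 300, or −0.022 with both its libraries out) to 0.27, and of −0.084, −0.11 and −0.073 on the TPM scales. Psme4 on the contralateral side had −0.10, but 0.031, 0.033 and 0.031 on the TPM scales, 0.051 without the library of mouse 296 (0.054 without the mouse) and 0.0089 without the library of mouse 295 (0.020 without the mouse), with lows of −0.16 without the wild-type library of mouse 474 and −0.20 without the mouse. The cause of these shifts was not tested.

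With the mouse block the interaction also gave 0 calls, and the genotype comparisons, which lie between mice, could not be fitted with it. RLE and upper-quartile scaling, other filters, limma-voom, the non-robust fit and a fit of the 2 groups alone kept each count within 1.5 times and each median's direction. Depth limits Psma8 most, with 152 counts over all 12 libraries and the widest errors of the tested subunits.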
